A study of Mus musculus with 12 samples.

Results

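The genes described are 10 immediate early genes outside the AP-1 family: the zinc finger transcription factors Egr1, Egr2 and Egr3, the nuclear receptor Nr4a1, the Krüppel-like factors Klf4 and Klf6, the immediate early response genes Ier2, Ier3 and Ier5, and the phosphatase gene Dusp1. They were chosen by name, as known members of this class, at a time when earlier results of these data were known. All 10 were found among the 17576 genes of the expression table, and 8 of them passed the filter on low values that left 11435 genes to test. RNA-seq was done on 12 libraries of C18-4 cells, an immortalized line of mouse spermatogonia used as a model of spermatogonial stem cells. Each of the 4 groups had 3 libraries. All groups carried a lentivirus, made with the vector LV3 or LV5. The 3NC group carried LV3 with a control shRNA, and the knockdown group (KD) carried LV3 with shRNAs against lncRNA5251, of which the methods list 3. The heading of the cell experiment in the supplement names lncRNA8276, and the sample labels, which name lncRNA5251, were followed. The 5NC group carried LV5 without an insert, and the group labelled as overexpression (OV) carried LV5 with lncRNA5251. The comparisons asked how these genes stood after knockdown and after overexpression, each against the control with its own vector. Labels do not say whether the 3 libraries of a group came from separate cultures, so the p-values measure only the spread between these libraries, which may be technical.

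Immediate early genes are transcribed within minutes of a growth factor, serum or stress signal, without new protein synthesis. ERK and p38 kinases activate transcription factors that wait at their promoters, such as SRF with its ELK partners at CArG boxes and CREB at cAMP response elements (CRE). Their mRNAs are short-lived, so levels in growing cells follow the running signal. The products are mostly transcription factors that pass the signal on and inhibitors that end it, and among the latter DUSP1 removes phosphate from the MAP kinases. Growth factors such as GDNF and FGF, which sustain spermatogonial stem cells, signal in part through this route.

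Levels are the deposited RPKM, that is reads divided by gene length and by library size. Differences are log2 fold changes of RPKM + 1, a scale that understates the change of genes of low level, with their standard error (SE) and the p-value of limma adjusted over all genes tested. Rose and fell are used at an adjusted p of at most 0.05. The threshold of the study was an adjusted p of at most 0.001 with a log2 fold change of at least 1 in size. The study set it on the test of DEGseq, while all counts here rest on limma, so they need not match those of the study. RPKM do not keep read numbers, so the depth behind a value is unknown. Summed over all genes, the libraries held 533099 to 580920 RPKM. Each of the 3 listed shRNAs, 21 bases long, matched transcripts of Purb and of no other gene. Purb, for a protein that binds purine-rich DNA and RNA, stood at 33.6 ± 0.62 RPKM (SD, n = 3) in 3NC and at 9.32 ± 0.81 in KD, a log2 fold change of -1.75 (SE 0.10, adjusted p = 1.69e-09). Purb stood at 30.7 ± 1.46 RPKM in 5NC and at 27.1 ± 5.30 in OV. Its libraries overlapped there, with a log2 fold change of -0.19 (SE 0.10, adjusted p = 0.176). No row of the table was named for lncRNA5251, and its level was not analysed here. A rise of lncRNA5251 in OV was thus not tested. Effects of less Purb and of less lncRNA5251 in KD cannot be told apart. Most defining markers of spermatogonia were at very low levels or at 0 in these libraries. Of 15 such markers with a row, 12 were below 1 RPKM in all libraries, and Ret, Kit, Nanos2 and Pou5f1 were at 0 throughout, while Gfra1 reached 0.17 and Zbtb16 0.04 RPKM. The other markers, Uchl1, Etv5 and Id4, passed the filter. The cells are therefore named by their line only.

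The 10 genes differed widely in level. Ier3, whose product modulates apoptosis and ERK signalling, was by far the most abundant, at 82.82 to 254.73 RPKM. Its mean RPKM over the 12 libraries lay at percentile 95.8 of the genes tested. Klf6 was at percentile 77.3, Egr1 at 67.9, Dusp1 at 63.3, Ier2 at 53.0 and Ier5 at 49.4. The lowest tested genes were Klf4 at percentile 28.2 and Nr4a1 at 24.3. Egr2 and Egr3 stayed at or below 0.21 RPKM and 0.12 RPKM in all libraries and were not tested. Egr2 was between 0.13 and 0.16 RPKM in 3NC, 0.08 and 0.14 in KD, 0.12 and 0.21 in 5NC, and 0.07 and 0.17 in OV, so its groups overlapped. Egr3 was at 0.04, 0.09 and 0.11 RPKM in 3NC, and 3 libraries were listed at 0, 1 of KD and 2 of 5NC. Of the 3 EGR genes, Egr1 was thus the only one at a level that could be tested.

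**Figure D1:**
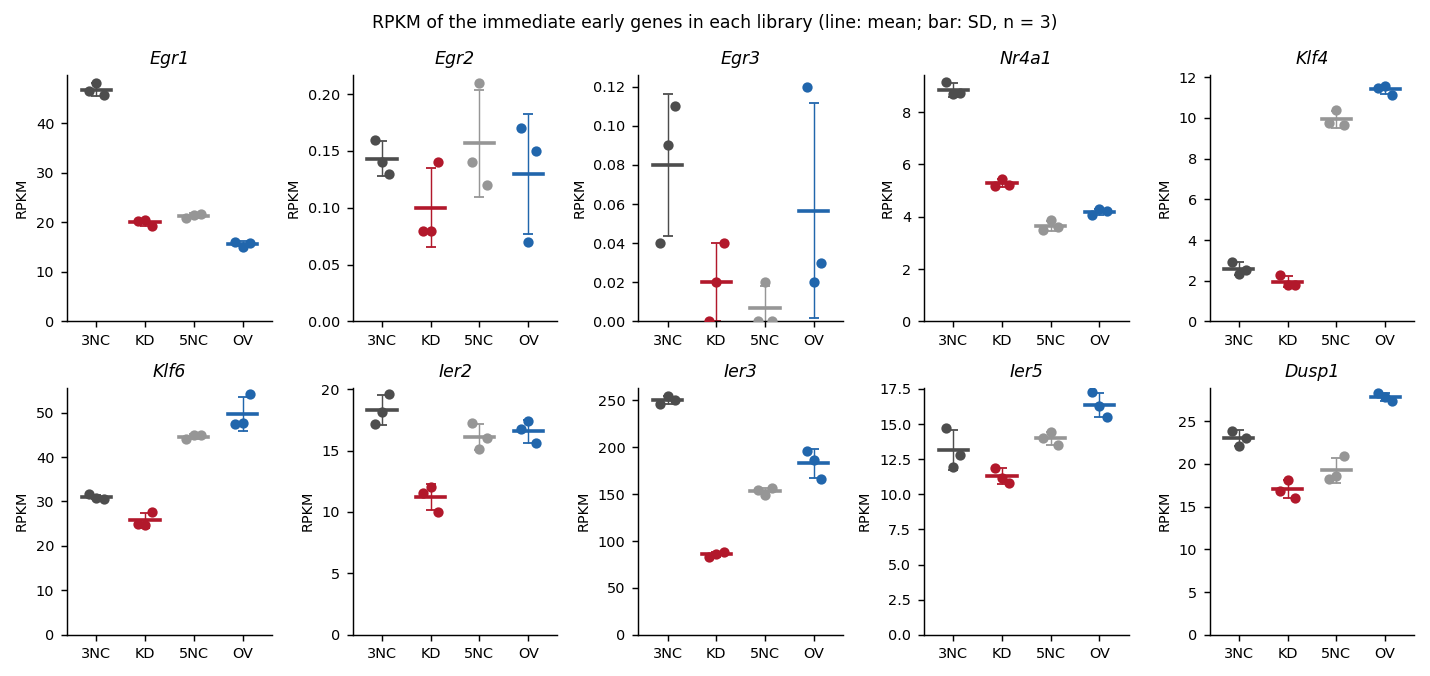
RPKM (vertical axes, each from 0) of the 10 genes in the 3 libraries of each group; points are libraries, lines the group mean and bars the SD. Ier3 and Egr1 separate 3NC from KD most widely, Klf4 is high only in the LV5 groups 5NC and OV, and Egr2 and Egr3 stay at or below 0.21 RPKM.

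Promoter windows of 250 bases before to 50 after a transcription start, from RefSeq on GRCm38.p6, were at hand for 7 of the 10 genes (11 windows). Egr1, Egr3 and Ier2 had no window. The windows of Dusp1, Nr4a1 and Ier3 are shown because these genes differed in how they stood in the groups. Capitals mark TGACG on either strand (CGTCA when read on the other), the core that CREB and ATF1 bind, and each window reads 5′ to 3′ along the gene. Dusp1 is on the minus strand at chr17:26508423-26508722, Nr4a1 on the plus strand at chr15:101266596-101266895, and Ier3 on the plus strand at chr17:35821463-35821762.
Dusp1: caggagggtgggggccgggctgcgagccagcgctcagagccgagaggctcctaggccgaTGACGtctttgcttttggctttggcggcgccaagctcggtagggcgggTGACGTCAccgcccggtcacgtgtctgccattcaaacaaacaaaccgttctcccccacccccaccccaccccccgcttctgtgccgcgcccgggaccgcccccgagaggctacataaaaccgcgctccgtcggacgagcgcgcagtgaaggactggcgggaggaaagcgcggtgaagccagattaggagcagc
Nr4a1: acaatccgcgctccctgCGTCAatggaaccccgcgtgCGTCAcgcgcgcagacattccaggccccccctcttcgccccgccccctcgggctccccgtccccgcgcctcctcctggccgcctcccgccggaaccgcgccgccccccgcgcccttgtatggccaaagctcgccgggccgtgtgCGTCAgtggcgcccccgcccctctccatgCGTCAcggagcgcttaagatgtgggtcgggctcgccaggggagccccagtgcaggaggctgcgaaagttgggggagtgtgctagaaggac
Ier3: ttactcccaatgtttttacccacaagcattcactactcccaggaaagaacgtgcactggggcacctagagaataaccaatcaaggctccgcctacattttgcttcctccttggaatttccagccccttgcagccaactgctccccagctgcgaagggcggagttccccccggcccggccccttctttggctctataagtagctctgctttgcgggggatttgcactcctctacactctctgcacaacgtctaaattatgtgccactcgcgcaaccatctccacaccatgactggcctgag
The Dusp1 window held a full CRE (TGACGTCA) whose first base is at -143 from the start, and a separate TGACG at -191. The Nr4a1 window held 4 matches to the core, and the Ier3 window held none. A full CRE was in 1.79% of all 32851 windows of the table, and TGACG in 20.8%. Among the 11 windows of the 7 genes, which overlap in part for Egr2, TGACG was in 6 (of Dusp1, Egr2, Klf4 and Nr4a1) and the full CRE in 1, that of Dusp1. The CArG box was in 4 of the 11, all of Egr2, against 1.63% of all windows. GGGCGG, the GC box, was in 8 of the 11 and in 35.7% of all windows, and each of the 7 genes had a window with it. CCGGAA, an ETS core, was in 2 of the 11, of Egr2 and Nr4a1, and in 14.9% of all windows, and TATAAA in 0 of the 11 and in 13.6%. Both strands were searched for each motif, and the core also counts where it lies within a full CRE. A match is a description of the letters, not of a bound site.

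All 8 tested genes were lower in KD than in 3NC. Ier3 fell to 34.2% and Egr1 to 42.7% of the 3NC mean, and these 2 alone passed the threshold of the study. The other falls were smaller, down to that of Ier5, which kept 85.8% of its level. Over all genes tested, 23.5% fell and 31.9% rose, and 1.57% passed the threshold of the study in either direction. The median log2 fold change was -0.53 over the 8 genes and 0.04 over all genes tested. In bulk RNA, fewer cells that express a gene and less RNA per cell cannot be told apart.

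Among the transcription factors, Egr1 (Entrez gene 13653), which binds GC-rich elements of growth and differentiation genes, was at 46.43, 48.16 and 45.71 RPKM in 3NC. It was at 20.24, 20.5 and 19.2 RPKM in KD, a log2 fold change of -1.19 (SE 0.05, adjusted p = 7.84e-11). The lowest 3NC library was thus more than 2 times the highest KD library, and Egr1 ranked 74 among the falls of all 11435 genes. Nr4a1 (15370), an orphan nuclear receptor also known as Nur77, was at 9.15, 8.68 and 8.73 RPKM in 3NC and at 5.19, 5.45 and 5.21 in KD. It fell by 0.65 on the log2 scale (SE 0.06, adjusted p = 4.89e-07). The groups were far apart beside their spread, with SDs of 0.26 and 0.14 RPKM. Klf4 (16600), one of the factors used to reprogram cells to pluripotency, was low in both groups, at 2.93, 2.35 and 2.52 RPKM in 3NC and 2.27, 1.81 and 1.8 in KD. The groups came within 0.1 RPKM of each other, and Klf4 fell by 0.28 on the log2 scale (SE 0.08, adjusted p = 0.00648). Klf6 (23849), a widely expressed relative of Klf4, went from 31.58, 30.75 and 30.62 RPKM in 3NC to 24.96, 24.64 and 27.57 in KD. Its groups did not overlap either, and the fall was 0.26 on the log2 scale (SE 0.06, adjusted p = 0.00123).

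Ier3 (15937) showed the widest change of the set. Its RPKM were 246.04, 254.73 and 250.87 in 3NC and 82.82, 86.2 and 88 in KD, a log2 fold change of -1.54 (SE 0.05, adjusted p = 1.78e-11). Both groups were tight, and Ier3 ranked 23 among all falls. Ier2 (15936), a small nuclear protein induced by growth factors, was at 17.16, 18.11 and 19.63 RPKM in 3NC and at 11.54, 12.03 and 10.01 in KD. The log2 fold change was -0.66 (SE 0.07, adjusted p = 2.63e-06), and the groups stayed well apart. Ier5 (15939), a relative of Ier2 that acts with heat shock factor, was at 14.72, 11.93 and 12.82 RPKM in 3NC and at 11.9, 11.13 and 10.82 in KD. Its groups nearly touched, with a log2 fold change of -0.20 (SE 0.07, adjusted p = 0.0249). Without 3NC library 1 the change of Ier5 was -0.12 and not significant (adjusted p = 0.153), and likewise without KD library 2 (adjusted p = 0.06) or 3 (adjusted p = 0.074). Dusp1 (19252), the phosphatase that switches off p38, JNK and ERK, was at 23.88, 22.1 and 23.08 RPKM in 3NC and at 16.86, 18.16 and 16.06 in KD. It fell by 0.42 on the log2 scale (SE 0.06, adjusted p = 3.74e-05), with no overlap. The libraries of KD were below those of 3NC for 8 of 8 genes, while the groups did not overlap, in either direction, for 62.8% of all genes tested. An exact permutation test of 3 against 3 libraries cannot give a p below 0.1, which is what it gave for each of the 8.

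Marker sums moved between the same groups. The summed RPKM of the spermatogonial markers, most of it Uchl1, ran from 82.6 to 91.3 in 3NC and from 63.6 to 71.9 in KD. All 3 tested markers of this list fell, Etv5 by 1.40 on the log2 scale (adjusted p = 2.16e-09), Id4 by 0.40 (adjusted p = 0.00143) and Uchl1 by 0.24 (adjusted p = 0.00525). That of 14 markers of somatic testis cells, mainly Col1a1, ran from 338 to 348 in 3NC and from 429 to 513 in KD, with the Sertoli markers Sox9 and Amh at or below 0.15 RPKM, Gata4 between 3.98 and 6.77 and Wt1 between 49.83 and 57.46 RPKM over all libraries. Of its 7 tested markers, Acta2 (1.04, adjusted p = 3.27e-08), Dcn (0.71, adjusted p = 1.35e-08) and Col1a1 (0.51, adjusted p = 1.59e-05) rose and 4 did not pass the test. These markers were named after their values were seen, and their part in the falls was not tested.

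In OV the genes differed from 5NC in both directions. Dusp1, Ier3 and Ier5 rose relative to 5NC, Egr1 fell, and the other 4 tested genes did not pass the test. Over all genes, 8.07% rose and 13.9% fell, that is 923 and 1595 genes, a split that became 939 and 950 after quantile normalization. The median over the 8 genes was 0.17 on the log2 scale and over all genes -0.03. No gene of the set and no gene of the table (0%) passed the threshold of the study by limma, while 7 of the 8 genes and 4240 of all genes had an unadjusted p under 0.05. The paper, which used DEGseq, reported both upregulated and downregulated genes in OV.

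Dusp1 had the clearest rise. It was at 18.24, 18.6 and 20.95 RPKM in 5NC and at 28.25, 27.89 and 27.32 in OV, 144% of the control, with a log2 fold change of 0.51 (SE 0.06, adjusted p = 0.000158). All OV libraries lay above all others of the series for this gene, and it ranked 38 among the rises of all genes. For Ier3 the values were 154.39, 149.26 and 156.27 RPKM in 5NC and 196.49, 186.15 and 165.72 in OV. The OV libraries were spread more widely (SD 15.7) but all higher, and the log2 fold change was 0.25 (SE 0.05, adjusted p = 0.00687). Ier5 was at 14.01, 14.43 and 13.52 RPKM in 5NC and at 17.25, 16.28 and 15.5 in OV. Its log2 fold change was 0.21 (SE 0.07, adjusted p = 0.0457). That call is fragile: without any 1 of the 5NC libraries, or without OV library 1 or 2, the adjusted p was between 0.0843 and 0.167, and without the filter on low values it was 0.0804.

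Egr1 went the other way. It was at 20.84, 21.56 and 21.69 RPKM in 5NC and at 15.93, 15.06 and 15.92 in OV, 73.2% of the control, with a log2 fold change of -0.43 (SE 0.05, adjusted p = 9.93e-05). Egr1 was therefore below the matched control in KD and in OV alike. For Nr4a1, the RPKM were 3.48, 3.87 and 3.61 in 5NC and 4.07, 4.29 and 4.23 in OV, a log2 fold change of 0.16 (adjusted p = 0.0727) that passed the test after quantile normalization (0.26, adjusted p = 0.0123). Klf4 was at 9.73, 10.4 and 9.65 RPKM in 5NC and at 11.47, 11.59 and 11.14 in OV (log2 fold change 0.18, adjusted p = 0.104). Klf6 was at 44.02, 44.89 and 44.85 RPKM in 5NC and at 47.33, 47.57 and 54.08 in OV (0.15, adjusted p = 0.0711, and 0.09 without OV library 3). The OV libraries of these 3 genes were all above those of 5NC although the test was not passed. Ier2 was at 17.24, 15.13 and 16.02 RPKM in 5NC and at 16.72, 17.38 and 15.58 in OV, with overlapping groups and a log2 fold change of 0.04 (95% interval -0.12 to 0.19, adjusted p = 0.752). Groups did not overlap for 7 of the 8 genes, against 36.7% of all genes tested. Here the spermatogonial marker sum was 93.8 to 97.6 RPKM in 5NC and 110 to 127 in OV, the somatic marker sum was 571 to 579 RPKM in 5NC and 589 to 625 in OV, and their part in these differences was not tested. Of the 7 somatic markers tested, 0 rose by limma in OV (median -0.01), and Acta2 was the 1 that fell (-0.60, adjusted p = 0.000244). Col1a1, which makes up most of the sum, had an unadjusted p of 0.041 and an adjusted p of 0.118 (log2 fold change 0.15).

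**Figure D2:**
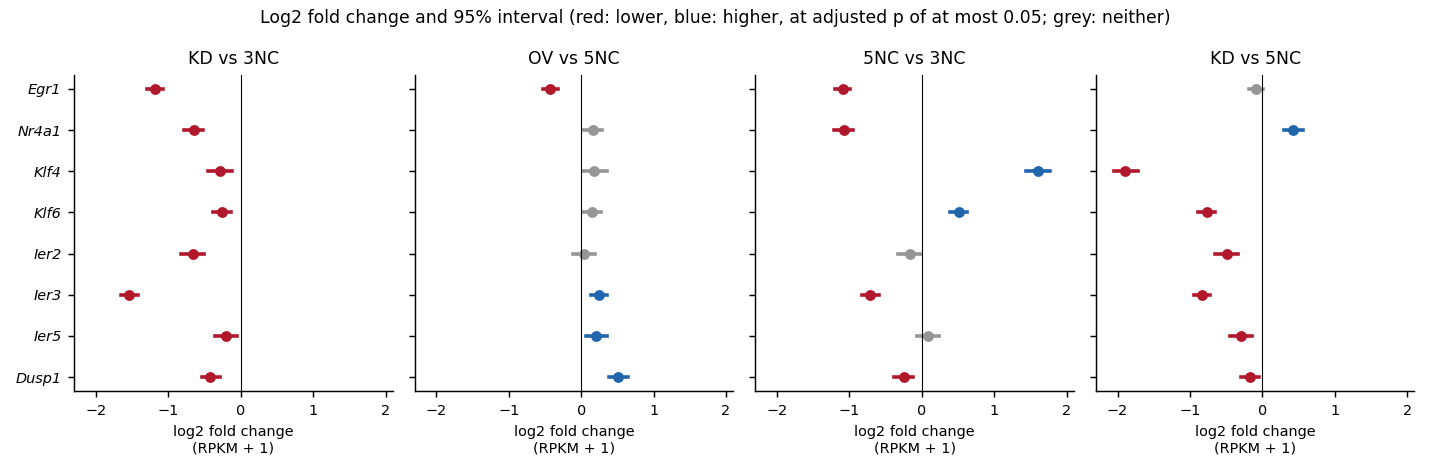
Log2 fold change of RPKM + 1 (horizontal axis) with its 95% interval for the 8 tested genes in 4 comparisons; red is lower and blue higher at an adjusted p of at most 0.05, grey neither. All 8 genes lie below 0 in KD against 3NC, from -0.20 to -1.54, while in OV against 5NC only Egr1 does.

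The difference of the effects was tested as an interaction, the KD change minus the OV change. It was negative and past the test for 8 of 8 genes, against 20.7% of all genes tested. Its size was largest for Ier3, at -1.79 (SE 0.08, adjusted p = 5.76e-10), and next for Dusp1, at -0.93 (SE 0.09, adjusted p = 7.44e-07). For Nr4a1 it was -0.81 (adjusted p = 3.1e-06), for Egr1 -0.76 (adjusted p = 5.1e-07) and for Ier2 -0.70 (adjusted p = 6.5e-05). Klf4 (-0.47, adjusted p = 0.0027), Klf6 (-0.41, adjusted p = 0.000659) and Ier5 (-0.41, adjusted p = 0.00313) differed least. Genes that fell in KD and rose in OV, each by its own test, were 3 of the 8 (Dusp1, Ier3 and Ier5) and 3.70% of all genes tested. Egr1 fell in both, and its interaction came from the larger fall in KD. Nr4a1, Klf4, Klf6 and Ier2 fell in KD and did not pass the test in OV.

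The controls themselves differed in these genes. In 5NC relative to 3NC, Egr1, Nr4a1, Ier3 and Dusp1 were lower, Klf4 and Klf6 were higher, and Ier2 and Ier5 did not pass the test. Egr1 differed by -1.09 on the log2 scale (adjusted p = 8.04e-11) and stood in 5NC at 45.7% of 3NC. Nr4a1 differed by -1.08 (SE 0.06, adjusted p = 1.35e-09), at 41.3% of 3NC. Both passed the threshold of the study. Klf4 passed it in the other direction, with 9.93 ± 0.41 RPKM in 5NC and 2.60 ± 0.30 in 3NC, a log2 fold change of 1.60 (SE 0.08, adjusted p = 2.62e-10). It ranked 33 among the rises of all genes. Klf6 was higher by 0.51 (adjusted p = 2.29e-06), Ier3 lower with a change of -0.71 (adjusted p = 3.95e-08) and Dusp1 with -0.25 (adjusted p = 0.00285). The values of Ier2 (-0.17, adjusted p = 0.0594) and Ier5 (0.09, adjusted p = 0.313) were smaller, and that of Ier2 passed the test without 3NC library 1 (-0.21, adjusted p = 0.0437) or 5NC library 1 (-0.22, adjusted p = 0.0383). That of Ier5 was 0.16 without 3NC library 1 (adjusted p = 0.06) and 0.02 without 3NC library 2 (adjusted p = 0.813). Among all genes 25.6% were lower and 31.0% higher in 5NC, and 2.61% passed the threshold of the study. The vector, the presence of a control shRNA and the culture go with the control group, and they cannot be told apart. The summed somatic markers were 571 to 579 RPKM in 5NC against 338 to 348 in 3NC, and their part was not tested.

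Set against 5NC in place of 3NC, the knockdown libraries gave another picture for Egr1 and Nr4a1. Both comparisons share the KD libraries. Egr1 in KD did not pass the test relative to 5NC, at -0.09 on the log2 scale (95% interval -0.19 to 0.01, adjusted p = 0.103). Nr4a1 was higher in KD than in 5NC, by 0.43 (adjusted p = 1.84e-05). The other 6 genes were lower in KD than in 5NC as well as in 3NC, namely Klf4 (-1.89, adjusted p = 4.61e-11), Ier3 (-0.83, adjusted p = 4.74e-09), Klf6 (-0.77, adjusted p = 1.96e-08), Ier2 (-0.49, adjusted p = 3.34e-05), Ier5 (-0.29, adjusted p = 0.00228) and Dusp1 (-0.17, adjusted p = 0.024). Klf4 alone passed the threshold of the study and ranked 18 among all falls. The Dusp1 call was lost without KD library 1 (adjusted p = 0.061) or 3 (0.0873), without 5NC library 3 (-0.11, adjusted p = 0.145) and after quantile normalization (adjusted p = 0.0646). In this comparison 31.4% of all genes were lower, 34.0% were higher and 3.55% passed the threshold of the study. Of the tested markers, 3 of 3 spermatogonial and 3 of 7 somatic ones were lower in KD than in 5NC and 0 were higher. Their part in these differences was not tested.

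The order of the 4 groups separated the genes into patterns. Egr1 and Nr4a1 were highest in 3NC. Below it Egr1 ran 5NC, KD, OV and Nr4a1 ran KD, OV, 5NC. The neighbours 5NC and KD did not pass the test for Egr1, nor OV and 5NC for Nr4a1 (adjusted p = 0.0727). Ier3 and Ier2 ran 3NC, OV, 5NC, KD. All steps passed the test for Ier3. For Ier2 only the last step did, since 3NC and OV (adjusted p = 0.125) and OV and 5NC overlapped. Dusp1 ran OV, 3NC, 5NC, KD with all steps past the test, and its OV level was 0.26 above 3NC on the log2 scale (adjusted p = 0.0016). Ier5, Klf4 and Klf6 ran OV, 5NC, 3NC, KD. Of these steps, OV to 5NC was not past the test for Klf4 and Klf6, nor 5NC to 3NC for Ier5. KD was lowest for 6 of the 8 genes, all but Egr1 and Nr4a1.

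Correlations over the 12 libraries describe the same patterns, and rest mostly on the differences between 4 groups. Pearson's r of the log2 levels was 0.97 for Klf4 with Klf6, 0.93 for Ier2 with Ier3 and 0.88 for Egr1 with Nr4a1. It was -0.74 for Nr4a1 with Klf4 and -0.02 for Egr1 with Dusp1. The immediate early genes thus did not share 1 profile in these cells.

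**Figure D3:**
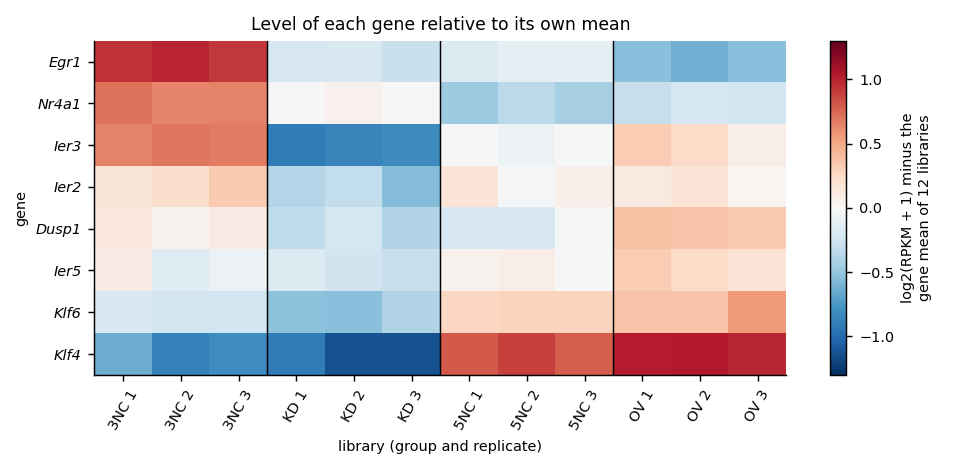
Log2 level of RPKM + 1 of the 8 tested genes (rows) in the 12 libraries (columns), each minus the mean of its gene; red is above and blue below that mean. Egr1 and Nr4a1 are high only in 3NC, Klf4 and Klf6 in 5NC and OV, and Ier3 is lowest in KD.

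The genes outside the set whose profile was most like that of Egr1 over the 12 libraries were Khdc4 (r = 0.985), Ell2 (0.983), Hspa1b (0.976), Akap8 (0.975) and Cep76 (0.972). They encode, in this order, a KH domain RNA-binding protein, an elongation factor of RNA polymerase, an inducible heat shock protein, an anchoring protein of protein kinase A and a centrosomal protein. Hspa1b is near-identical to Hspa1a, so its reads may be split between these genes. In KD against 3NC, Khdc4 changed by -0.58 and Hspa1b by -1.02 on the log2 scale, beside -1.19 for Egr1. Most like Ier3, the gene of the 8 with the largest change in KD, were Tuba1c (r = 0.994), Utp4 (0.992), Nadk (0.989), Ebna1bp2 (0.987) and Nob1 (0.986). They encode an alpha-tubulin, a factor of the small ribosomal subunit, NAD kinase, a nucleolar protein and an endonuclease of ribosomal RNA, and alpha-tubulin genes share sequence. Tuba1c changed by -1.10 in KD against 3NC and by 0.19 in OV against 5NC, which its choice for likeness to Ier3 in the same libraries makes a description only.

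Counts in 4 related gene lists are to be read beside the shares over all genes tested: 23.5% fell and 31.9% rose in KD, 13.9% fell and 8.07% rose in OV, 25.6% were lower and 31.0% higher in 5NC than in 3NC, and 3.70% fell in KD and rose in OV. A list of relatives held 13 tested genes of the IER, NR4A, DUSP and KLF families, most of them KLF genes. Of these, 6 fell and 1 rose in KD, with a median of -0.09 on the log2 scale. No EGR relative was tested, as Egr4 had no row. Dusp4, a nuclear MAP kinase phosphatase like Dusp1, was the 1 past the threshold of the study, with 24.0 ± 1.28 RPKM in 3NC and 7.03 ± 0.16 in KD (log2 fold change -1.63, SE 0.08, adjusted p = 8.27e-10). In OV, 2 of the 13 rose, Dusp4 (0.37, adjusted p = 0.0091) and Klf2 (0.31, adjusted p = 0.0375), and 1 fell. Dusp4 was thus the 1 relative that fell in KD and rose in OV.

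Further immediate early genes outside these families numbered 34 tested, of which 21 fell and 4 rose in KD (median -0.35) and 9 rose and 0 fell by limma in OV (median 0.07). At an unadjusted p under 0.05, 14 of the 34 were higher and 3 lower in OV. Of all 11435 genes tested, 4240 were under that cut-off in OV in either direction. In KD, 5 of the 34 fell past the threshold of the study. The largest falls were those of the chemokine gene Cxcl1 (-1.73, adjusted p = 2.5e-11), the growth regulator Myc (-1.50, adjusted p = 4.45e-11), the small MAF factor Maff (-1.14, adjusted p = 4.82e-10) and the antiproliferative gene Btg2 (-1.10, adjusted p = 6.18e-08). In OV, Gadd45g, a stress sensor, rose by 0.56 (adjusted p = 0.00218) and Btg2 by 0.49 (adjusted p = 0.00229). In this list 6 of 34 genes fell in KD and rose in OV. Between the controls, 19 of the 34 were lower and 7 higher in 5NC (median -0.20). Amotl2, a binder of YAP, was higher by 1.16 (adjusted p = 1.63e-11), and Nfkbiz, a regulator of NF-kB, differed by -1.06 (adjusted p = 3.52e-09).

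Of 7 tested AP-1 genes, 6 fell in KD and 1 rose. Fosl1 fell from 31.0 ± 1.10 RPKM to 0.98 ± 0.41 (log2 fold change -4.03, adjusted p = 1.07e-11), and Fos rose from 9.67 ± 0.27 to 21.5 ± 1.37 (1.08, adjusted p = 2.89e-09). Fos and Egr1, which are induced by many of the same signals, thus differed in direction in KD. Fos was lower in OV than in 5NC (-0.34, adjusted p = 0.0032) and in 5NC than in 3NC (-0.46, adjusted p = 1.71e-05), as Egr1 was. In OV, Fosl1 (0.66, adjusted p = 0.00354) and Atf3 (0.51, adjusted p = 0.000485) were among the 3 that rose, and Fos was the 1 that fell. Genes that fell in KD and rose in OV were 3 of the 7, Fosl1, Atf3 and Jun, the last named after its values were seen. Atf3 in KD was at 10.66, 8.8 and 8.98 RPKM and overlapped with 3NC (10.45 to 11.36 RPKM), with a log2 fold change of -0.18 (adjusted p = 0.0442). Fosl1 also differed by -3.56 between 5NC and 3NC (adjusted p = 7.51e-12).

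Of 25 tested genes for SRF, its partners, CREB, the NAB co-repressors of EGR and the RAS, RAF, MEK, ERK and RSK proteins, 8 fell and 6 rose in KD (median 0.06), and 0 passed the threshold of the study although 14 passed an adjusted p of 0.05 in limma. Srf is also counted among the further immediate early genes. In OV, 4 fell and 0 rose by limma (median -0.07). At an unadjusted p under 0.05, 8 were lower and 1 higher, beside 4240 of all 11435 genes tested in either direction. The largest falls were those of Elk4, an SRF partner (-0.37, adjusted p = 0.0468), and Rps6ka3, an RSK kinase (-0.35, adjusted p = 0.018). Elk4 was at 1.6, 1.85 and 3.04 RPKM in OV, so that the last of these libraries lay within the range of 5NC. None of the 25 fell in KD and rose in OV.

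**Figure D4:**
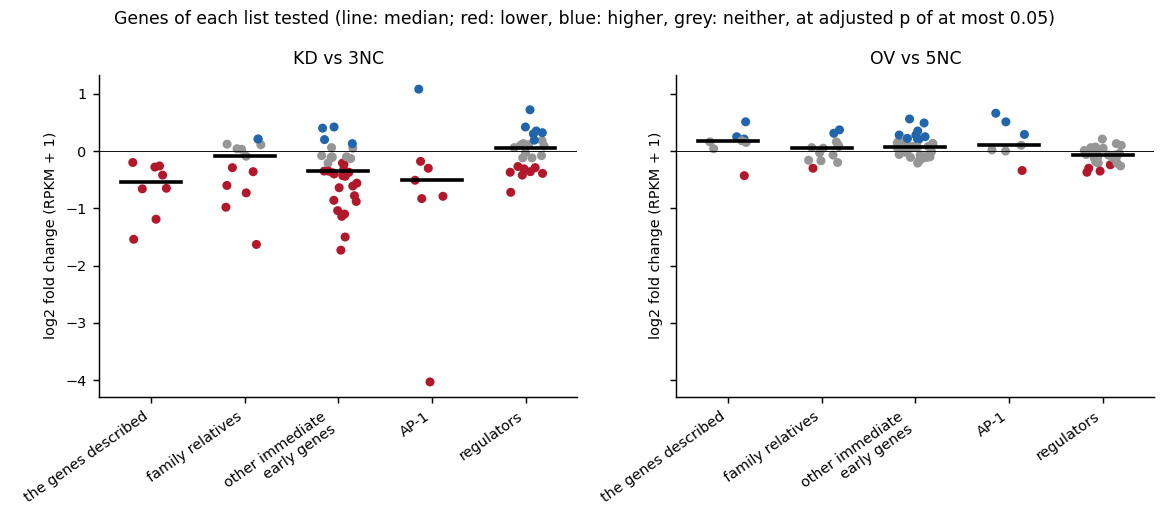
Log2 fold change of RPKM + 1 (vertical axis) of each tested gene in 5 lists, for KD against 3NC and OV against 5NC; points are genes, black lines list medians, red is lower and blue higher at an adjusted p of at most 0.05. In KD the described genes have a median of -0.53 and the regulators of 0.06, and the lowest point is Fosl1 at -4.03.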

How the data were processed

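RNA of 12 C18-4 libraries was measured, 3 in each of 4 groups taken from the sample labels. The authors deposited RPKM values in 1 table of 17576 genes. According to their methods, reads were mapped to reference genes with SOAPaligner 2.20 and read numbers were transformed into RPKM. The labels name total RNA and the methods enrichment with oligo(dT) beads. The reference gene set and genome build are not given in the sources used here, and neither is how reads shared by related genes were counted. RPKM hide read numbers, so no count test was run.

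The deposited values were transformed to log2(RPKM + 1). The 11435 genes that reached 1 RPKM in 3 or more libraries were tested with limma 3.58.1 in R 4.3.3 (group as the only term, all 12 libraries in 1 model, eBayes with trend), with Benjamini-Hochberg adjustment. The procedure was tested on simulated data. Motifs were searched in RefSeq promoter windows, and shRNA sequences in 141767 GENCODE transcripts. Python 3.11.15 with matplotlib 3.10.9 served for the figures.

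The members and gene lists were chosen with earlier results of these data known. Besides the members, at most 4 genes per list past the threshold of the study in KD against 3NC and in 5NC against 3NC were named, at most 2 per list at an adjusted p of 0.05 in OV against 5NC, and the 5 genes most correlated with Egr1 and with Ier3. Alternatives were a pseudocount of 0.1, no filter, quantile normalization, a fit to 6 libraries, a replicate block and each library left out. The testis and sperm experiments were not analysed here.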

Additional observations from a re-analysis of the deposited data

Results flagged for a closer look

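The change after knockdown and the change after overexpression went in opposite directions for 3 genes, each change past its own test. The genes were picked by these calls, which all but fix that the difference, tested as an interaction, passes too. Its values below describe its size and are no further support. For Ier3 the knockdown change minus the overexpression change was -1.79 on the log2 scale (SE 0.08, adjusted p = 5.76e-10 by limma), with -1.54 in KD and 0.25 in OV. For Dusp1 it was -0.93 (SE 0.09, adjusted p = 7.44e-07), with -0.42 in KD and 0.51 in OV. For Ier5 it was -0.41 (SE 0.10, adjusted p = 0.00313), with -0.20 in KD and 0.21 in OV. The libraries of each group lay wholly on that side of their control for all 3 genes. The interaction of Ier5 kept an adjusted p of at most 0.0101 in all 16 alternatives, while its separate changes did not keep theirs. No group had the 4 libraries needed to test for an outlying sample.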

How the results depend on the processing

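Over all alternatives, 462 of 480 values of single genes had the same call, 13 lost the call, 5 gained it and 0 called values changed sign. Ier2 in OV against 5NC, not called, went from 0.04 to -0.01 without 5NC library 2. All 240 counts of called genes stayed within 1.5 times the main count. Leaving out 1 library gave 7 to 8 falls in KD against 3NC, 2 to 3 rises in OV against 5NC, 4 to 5 falls in 5NC against 3NC and 5 to 6 in KD against 5NC. Changed calls were those of Ier5 (KD against 3NC, OV against 5NC), Dusp1 (KD against 5NC), Ier2 (5NC against 3NC) and Nr4a1 (OV against 5NC), and the cause was not tested. Ier2 passed the test in 5NC against 3NC also after quantile normalization (adjusted p = 0.0175) and in a fit to the 6 libraries compared (0.0232). With a pseudocount of 0.1, genes past the threshold of the study numbered 363 in KD against 3NC (180 with 1), 506 in 5NC against 3NC (298), 657 in KD against 5NC (406) and 4 in OV against 5NC (0). Equal replicate numbers did not pair the libraries: correlations of their deviations ran from -0.18 to 0.35, over 0.1 in 4 of 18 pairs. With a replicate block, 8 genes fell in KD against 3NC as before, 2 past the threshold of the study, and no call of a described gene changed. Without the filter on low values, Egr3 differed by -0.10 between 5NC and 3NC (adjusted p = 0.043), and its interaction was -0.15 (adjusted p = 0.0385), which made that count 9 in place of 8, at levels no higher than 0.12 RPKM. The planned count test (DESeq2) was not run, because the values are RPKM, and the precision in reads is unknown.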
